A study of Mus musculus with 28 samples.

Results

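The genes of glycolysis and of the hypoxia response were examined in whole lungs of newborn mice that lacked the small GTPases HRas, NRas or both, with or without antenatal N-acetyl cysteine (NAC). The set was a list of 38 gene symbols, and a member was taken as measured where a probe set of the array carried that symbol alone, with the brightest such probe set standing for the gene. By this rule 34 of the 38 members were measured, among 22180 genes tested in all. Aldoa, Bnip3l and Ankrd37 had only probe sets shared with another symbol, Eno1 had none under its symbol in the annotation used here, and these 4 were not analysed here. Of the 34 measured members, 15 are enzymes or carriers of glucose uptake and glycolysis, 2 are pyruvate dehydrogenase kinases, 4 encode subunits of the hypoxia-inducible factors (HIF), 3 act in HIF turnover and 10 are other genes known to be induced by hypoxia.

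The untreated groups were Control (3 arrays), HRas-KO (3), NRas-KO (3) and DKO, which lacks both genes (5). The same 4 genotypes from females given 0.5% NAC through pregnancy are written with +NAC, with 4 arrays for DKO+NAC, 4 for Control+NAC, 3 for NRas-KO+NAC and 3 for HRas-KO+NAC. The series title names a fatal respiratory distress in DKO newborns. Each of the 28 arrays held total lung RNA of 1 animal at postnatal day 0. How the knockout alleles were made, the strain and the genotype of the Control animals beyond that word are not given in the sources used here. For HRas-KO+NAC the treatment stands in the source label and not in the title, and a protocol note names only samples 15, 16 and 17 as treated, so that the NAC groups rest on the source labels.

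Glycolysis splits glucose into pyruvate in the cytosol, and pyruvate either enters mitochondria through pyruvate dehydrogenase or is reduced to lactate. In low oxygen the alpha subunits of HIF escape hydroxylation by the prolyl hydroxylases Egln1 and Egln3 and degradation through Vhl, pair with Arnt and raise transcription of glucose transporters, glycolytic enzymes and the pyruvate dehydrogenase kinases. Hif1a and Epas1 encode the main alpha subunits, and in the lung Epas1 is known for its high expression in endothelium and its part in alveolar type 2 cell maturation around birth. The change from a fluid-filled to an air-breathing lung at birth is a step in oxygen supply, so these genes are a common readout in newborn lung.

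Values are log2 RMA values as the authors deposited them, differences are on the log2 scale, the error beside a mean is the SD over n animals and the error beside a difference is the SE of the limma fit. A gene was called higher or lower where its limma adjusted p was under 0.05 over all 22180 genes. RMA values are not per length, so levels were compared between groups and not between genes. The targeted gene Nras followed its labels, at 8.24 ± 0.14 (n = 3) in Control against 7.63 ± 0.13 (n = 5) in DKO and 7.69 ± 0.10 (n = 3) in NRas-KO, except that DKO+NAC replicate 4 read 8.08. Hras was not analysed here. Sample titles end in an animal code, and no start of that code was shared between untreated and NAC arrays, or between untreated DKO arrays and any other group, so that code start and condition cannot be told apart in those comparisons. Alveolar type 2 and endothelial markers were clearly expressed (mean levels of 8.02 to 13.11 and 6.86 to 11.65). The mean of 12 skeletal muscle markers stood high on DKO replicates 1, 5 and 3, NRas-KO replicate 2 and Control replicate 3 (0.38 to 1.37 above the gene means, against -0.07 or less elsewhere).

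Untreated DKO lungs were higher than Control in 5 of the 34 measured members and lower in none. Over all genes, 2.48% were called higher and 1.35% lower in this comparison. The members were chosen with earlier results of these data known, so these shares are no test of the list. The members called were the glucose transporter Slc2a1, the pyruvate dehydrogenase kinase Pdk3, the prolyl hydroxylase Egln3, the mitophagy receptor Bnip3 and the mTOR inhibitor Ddit4 (REDD1). The median difference of the members was 0.09 against 0.02 over all genes, and 23 of 34 (67.6%) lay above 0, against 54.8% of all genes. Most of the glycolytic enzymes themselves did not pass: of the 15 glucose uptake and glycolysis members, Slc2a1 alone was called, and the median of the 15 was 0.05.

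Slc2a1 (GLUT1), the basal glucose transporter of many cell types and the first step of the pathway, read 9.30, 9.83 and 9.23 in Control, 9.19, 9.27 and 9.40 in HRas-KO and 9.38, 9.53 and 9.61 in NRas-KO. The 5 DKO arrays read 9.97, 10.28, 10.04, 10.37 and 10.19. Every DKO array was thus above every one of the other 9 untreated arrays, and also above all 14 NAC arrays. The DKO mean of 10.17 ± 0.16 (n = 5) exceeded Control (9.45 ± 0.33, n = 3) by 0.72 ± 0.17, a 1.64-fold difference (limma adjusted p = 0.0145), HRas-KO by 0.88 (adjusted p = 0.0021) and NRas-KO by 0.67 (adjusted p = 0.0179). No other member was above all 23 other arrays in DKO, a pattern found in 0.564% of all genes.

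Egln3, a prolyl hydroxylase that is itself induced by HIF, had the largest difference of the members. It read 6.71, 7.64 and 6.91 in Control, 6.78, 6.88 and 6.97 in HRas-KO, 6.94, 8.32 and 8.09 in NRas-KO and 8.50, 8.93, 7.95, 8.87 and 8.13 in DKO. All DKO arrays were above Control and HRas-KO, while NRas-KO replicates 2 and 3 reached into the DKO range. DKO exceeded Control by 1.39 ± 0.35, or 2.62-fold (limma adjusted p = 0.0224), and HRas-KO by 1.60 ± 0.35 (adjusted p = 0.0066). Against NRas-KO the difference of 0.69 did not pass.

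Bnip3, a mitochondrial outer membrane protein that marks mitochondria for removal, read 7.50, 7.92 and 7.77 in Control, 7.25, 7.25 and 7.49 in HRas-KO and 7.50, 8.03 and 7.85 in NRas-KO. Its 5 DKO arrays read 8.23, 8.45, 8.65, 8.59 and 8.21, above all 9 other untreated arrays. The difference was 0.70 ± 0.18 from Control (limma adjusted p = 0.0258), 1.10 ± 0.18 from HRas-KO (adjusted p = 0.00062) and 0.63 ± 0.18 from NRas-KO (adjusted p = 0.0367).

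Ddit4, which restrains mTOR complex 1 under hypoxia and other stress, read 7.49, 7.96 and 7.67 in Control, 7.42, 6.92 and 8.10 in HRas-KO, 7.01, 7.73 and 7.97 in NRas-KO and 8.59, 8.45, 8.39, 8.51 and 8.68 in DKO. The DKO arrays again lay above all other untreated arrays and spread little among themselves (SD 0.11, n = 5). The difference was 0.82 ± 0.22 from Control, 1.04 from HRas-KO and 0.95 from NRas-KO, with limma adjusted p-values of 0.0354, 0.0052 and 0.0107.

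Pdk3, a kinase that switches off pyruvate dehydrogenase, read 7.04, 7.40 and 7.35 in Control and 7.66, 7.64, 7.64, 7.60 and 7.58 in DKO. The groups did not overlap, and HRas-KO (7.22 to 7.43) and NRas-KO (7.22 to 7.46) arrays were also below DKO. The difference from Control was 0.36 ± 0.10 (limma adjusted p = 0.0418). This call held in 5 of 18 other settings, and in none that left out a Control or DKO array. The other kinase measured, Pdk1, was at 6.84 ± 0.08 (n = 3) in Control and 6.69 ± 0.32 (n = 5) in DKO.

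The HIF subunits themselves did not pass in untreated DKO. Hif1a was at 8.97 ± 0.19 (n = 3) in Control and 8.96 ± 0.20 (n = 5) in DKO, Epas1 at 10.74 ± 0.19 and 10.85 ± 0.50, Hif3a at 9.41 ± 0.28 and 9.06 ± 0.32 and Arnt at 9.47 ± 0.15 and 9.63 ± 0.08. These group ranges overlapped for all 4. In HIF turnover, Vhl, the substrate receptor of the ubiquitin ligase for HIF alpha subunits, read 6.67, 6.92, 6.64, 6.92 and 6.68 in DKO against 6.59, 6.48 and 6.38 in Control. Its groups did not overlap, but its difference of 0.28 ± 0.10 missed the threshold (limma adjusted p = 0.123). Egln1, the main oxygen-sensing prolyl hydroxylase, read 7.51 to 8.04 in DKO and 7.99 to 8.18 in Control.

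**Figure D1:**
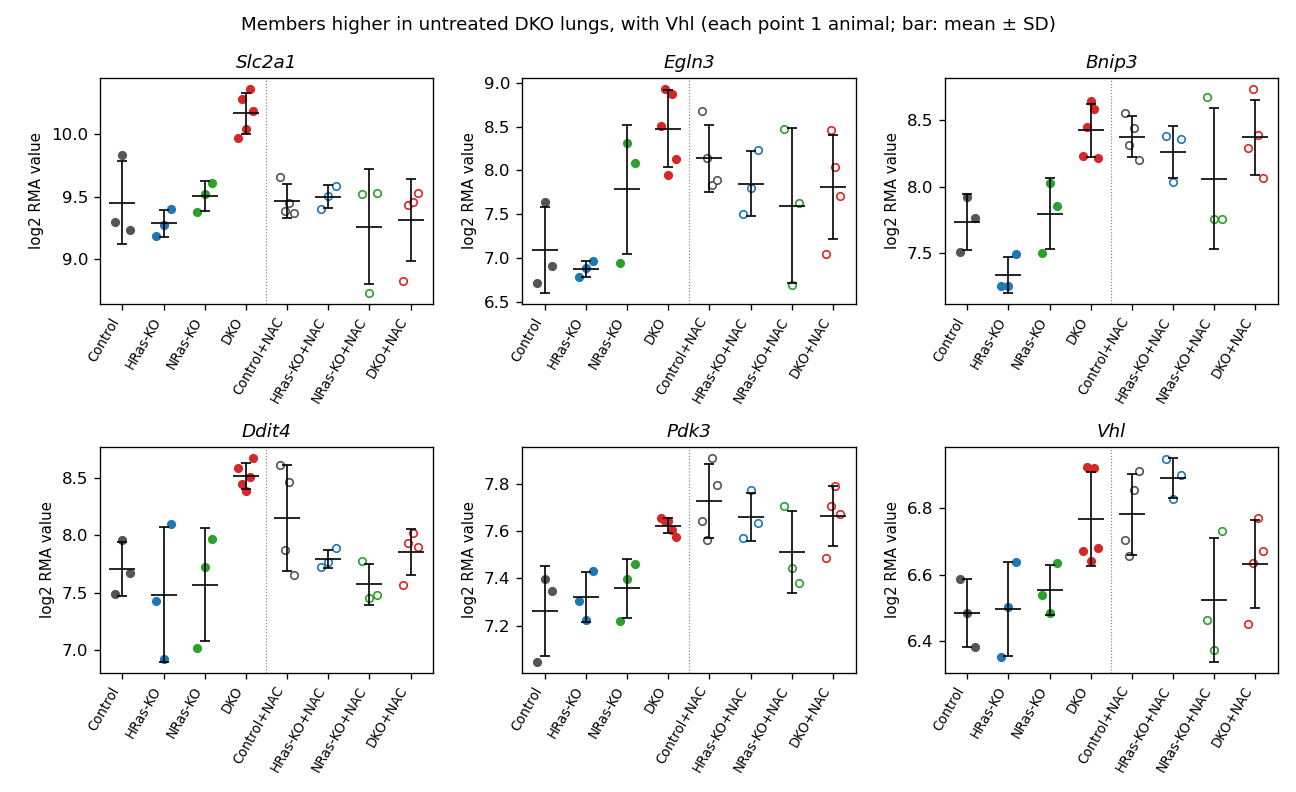
log2 RMA value on each of the 28 arrays (y axis) by group (x axis) for Slc2a1, Egln3, Bnip3, Ddit4, Pdk3 and Vhl; filled points are untreated animals, open points NAC animals, bars the mean ± SD. The 5 untreated DKO points of Slc2a1 (9.97 to 10.37) lie above all other points. Those of Bnip3, Ddit4, Pdk3 and, only narrowly, Vhl lie above the other untreated points.

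Against the single knockouts the called members went in the same direction, but the members as a set did so only against HRas-KO. Their median difference was 0.092 from HRas-KO, with 24 above 0 (70.6%) and 10 below. Over all genes the median was 0.009, with 52.1% above 0. From NRas-KO the member median was -0.004, with 17 above 0 and 17 below, against 0.01 and 52.4% above 0 over all genes. Of the 15 glucose uptake and glycolysis members, 4 lay above NRas-KO, with a median of -0.077. DKO was higher than HRas-KO in 4 members (Bnip3, Slc2a1, Ddit4 and Egln3) and lower in none, with 3.3% of all genes called higher and 2.32% lower. DKO was higher than NRas-KO in 3 members (Ddit4, Slc2a1 and Bnip3) and lower in none, with 3.2% called higher and 1.75% lower. Of 18 other settings of the fit, the call against NRas-KO held in 10 for Bnip3, 13 for Slc2a1 and 16 for Ddit4. These comparisons share the DKO arrays with the one against Control. All 5 DKO arrays were above all 9 other untreated arrays in 5 members (Slc2a1, Pdk3, Bnip3, Ddit4 and Vhl), against 2.65% of all genes. For Vhl the gap was very narrow, with the lowest DKO array at 6.642 and the highest other untreated array at 6.637.

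The calls against Control rested on few arrays. No member was called without Control replicate 1, or without replicate 3, where the differences were 0.25 to 1.20 and 0.40 to 1.30. None was called without the 5 arrays high in skeletal muscle markers (3 DKO, 1 Control, 1 NRas-KO), where the differences were 0.40 to 1.72 and the adjusted p-values 0.0781 to 0.359, and none then passed against NRas-KO. Against HRas-KO, Slc2a1 (1.04), Bnip3 (1.19) and Egln3 (2.02) still passed without those arrays. With the mean of both Slc2a1 probe sets the difference from Control was 0.30 (adjusted p = 0.178) and that from NRas-KO 0.28 (adjusted p = 0.202); the second, dim probe set of the gene (mean level 5.07) gave -0.12 and -0.12. With only the Control and DKO arrays in the fit, Ddit4 alone passed.

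Markers of other cell types also moved with the DKO group. The mean of 5 erythroid markers was 0.20 to 0.86 above the gene means on DKO arrays against -0.23 to 0.17 in Control. The 10 alveolar type 2 markers averaged -0.23 to 0.03 in DKO and 0.07 to 0.26 in Control, and the 10 endothelial markers -0.17 to 0.04 and 0.09 to 0.19. Their part in the differences of the members was not tested, and in whole lung fewer cells of a type and less RNA per cell cannot be told apart.

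To show the promoter sequence beside the members that were higher in DKO, the RefSeq promoter windows (GRCm38.p6, 250 bases before to 50 after each start) were searched for the core letters of the hypoxia response element, ACGTG and GCGTG, on both strands. ACGTG inside CACGTG matches on both strands and was counted on each. A stretch of each promoter, read 5′ to 3′ on the strand of the gene and around the match nearest to the start and ending before it, is printed with the matches in capitals, where CACGC is GCGTG on the opposite strand. Slc2a1 lies at chr4:119108679-119108743 (plus strand), Egln3 at chr12:54204069-54204124 (minus), Bnip3 at chr7:138909507-138909571 (minus), Ddit4 at chr10:59951851-59951915 (minus) and Pdk3 at chrX:93832169-93832233 (minus).
Slc2a1: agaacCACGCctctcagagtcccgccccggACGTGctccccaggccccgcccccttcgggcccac
Egln3: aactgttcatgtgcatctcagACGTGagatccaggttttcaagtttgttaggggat
Bnip3: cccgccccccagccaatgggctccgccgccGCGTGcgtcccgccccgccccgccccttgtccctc
Ddit4: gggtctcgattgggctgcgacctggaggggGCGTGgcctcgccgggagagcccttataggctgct
Pdk3: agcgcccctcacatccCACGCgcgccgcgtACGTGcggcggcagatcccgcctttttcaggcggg

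The windows of all 5 held a match, and the Vhl window held neither set of letters. Of 45 windows matched to 32 of the measured members, 36 (80%) held at least 1 match, against 43.8% of all 32851 windows in the table and 49.3% of the 21263 windows of protein-coding genes. ACGTG was in 55.6% of member windows and 19.6% of all windows, and GCGTG in 57.8% and 32.4%. The member windows were also richer in G and C, with a median of 62.7% against 52.7%. A match is only these letters in this window, and members called in none of the comparisons held them as well, such as Ldha, whose window at the upstream start held 7 matches.

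In the single knockouts no member was called against Control, in either direction, as no gene of the 22180 was (0 percent called). At an unadjusted limma p under 0.05, 0.857% of all genes and 0 members differed in HRas-KO, and 1.04% and 0 members in NRas-KO. Bnip3 alone lay below Control without overlap in HRas-KO (3.08% of all genes did), at 7.33 ± 0.14 against 7.73 ± 0.21 (n = 3 each), a difference of -0.40 that did not pass. In NRas-KO, Egln3 was at 7.78 ± 0.74 (n = 3), 0.69 above Control, with replicate 1 (6.94) inside the Control range and replicates 2 and 3 above it. Pfkl (0.32), Pdk1 (0.22) and Pgk1 (0.17) lay above Control without overlap in NRas-KO, and none passed. The share of all genes that did so is not given here. The median of the members was -0.04 in HRas-KO and 0.08 in NRas-KO, against 0.007 and 0.006 over all genes. Within the code starts that both groups shared, the member median was -0.04 (C118) and -0.07 (H058) for HRas-KO, and 0.08 and 0.09 for NRas-KO.

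NAC arrays differed from untreated arrays of the same genotype in 3 of the 4 HIF subunit genes. Hif1a was higher and Epas1 lower with NAC in Control, HRas-KO and DKO, and Hif3a was lower in Control, HRas-KO and NRas-KO. Their partner Arnt passed in none of the 4 NAC comparisons (differences of -0.17 to 0.07). Across all members, NAC gave 4 higher and 4 lower calls in Control, against 7.86% and 5.68% of all genes, and 4 higher and 2 lower in HRas-KO, against 6.73% and 5.1%. In NRas-KO 0 members were higher and 1 lower, against 2.86% and 3.56%, and in DKO 2 were higher and 8 lower, against 5.74% and 6.46%.

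Hif1a, the alpha subunit that drives most glycolytic targets, read 8.77, 9.02 and 9.13 in Control and 9.49, 9.48, 9.49 and 9.57 in Control+NAC. It read 9.14, 8.96 and 8.80 in HRas-KO and 9.52, 9.56 and 9.53 with NAC, and in NRas-KO 8.90, 8.84 and 9.11 against 9.38, 9.24 and 9.25 with NAC. DKO read 8.82, 9.25, 8.78, 8.85 and 9.09, and DKO+NAC 9.34, 9.45, 9.50 and 9.70. Every NAC array was above every untreated array of its own genotype. The difference was 0.54 ± 0.11 in Control (limma adjusted p = 0.0024), 0.57 ± 0.12 in HRas-KO (adjusted p = 0.0030) and 0.54 ± 0.10 in DKO (adjusted p = 0.00083). In NRas-KO it was 0.34 ± 0.12 and missed the threshold (adjusted p = 0.0988). The second, dim Hif1a probe set was also higher with NAC, by 0.42 in DKO, 0.37 in Control, 0.50 in NRas-KO and 0.73 in HRas-KO.

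Epas1 (HIF-2 alpha) went the other way. The 14 untreated arrays read 10.34 to 11.42 with a median of 10.71, and the 14 NAC arrays 9.36 to 10.31 with a median of 9.89. No NAC array reached the lowest untreated array, which held for 0.965% of all genes and for no other member. The difference was -1.02 ± 0.23 in Control (limma adjusted p = 0.0037), -0.95 ± 0.24 in HRas-KO (adjusted p = 0.0115), -0.83 ± 0.20 in DKO (adjusted p = 0.0065) and -0.60 ± 0.24 in NRas-KO (adjusted p = 0.158). The HRas-KO call held in 12 of 16 other settings of the fit. It was lost without HRas-KO replicate 1 or 3, or without HRas-KO+NAC replicate 1 or 3. Among untreated DKO arrays, replicates 1 and 3 (11.42 and 11.31) stood above replicates 2, 4 and 5 (10.42, 10.34 and 10.74), and without the arrays high in muscle markers the DKO difference was -0.37 (adjusted p = 0.362). Endothelial markers averaged -0.23 to 0.05 on NAC arrays, 0.06 to 0.23 on the untreated arrays other than DKO and -0.17 to 0.04 in DKO. Alveolar type 2 markers averaged -0.29 to 0.01 on NAC arrays, 0.04 to 0.33 on the untreated arrays other than DKO and -0.23 to 0.03 in DKO. The part of either in the Epas1 difference was not tested.

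Hif3a, whose products can restrain the other alpha subunits, read 9.51, 9.63 and 9.10 in Control and 9.09, 8.87, 8.57 and 8.50 in Control+NAC. In HRas-KO it read 9.03, 9.35 and 9.53 against 8.19, 8.77 and 8.62 with NAC, and in NRas-KO 9.16, 9.79 and 9.51 against 8.60, 8.52 and 8.61. NAC arrays lay below untreated arrays without overlap in these 3 genotypes, though only narrowly in Control. The differences were -0.65 ± 0.21, -0.77 ± 0.22 and -0.92 ± 0.22 (limma adjusted p = 0.0359, 0.0226 and 0.0128). DKO (8.59 to 9.44) and DKO+NAC (8.29 to 9.17) overlapped, with a difference of -0.37 that did not pass. In other settings of the fit the Hif3a call held in 11 of 17 for Control and 12 of 16 for HRas-KO, and in neither with code start as a random block. It held in 15 of 17 for NRas-KO, but not without replicate 2 of the untreated NRas-KO arrays (-0.77, adjusted p = 0.0857).

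**Figure D2:**
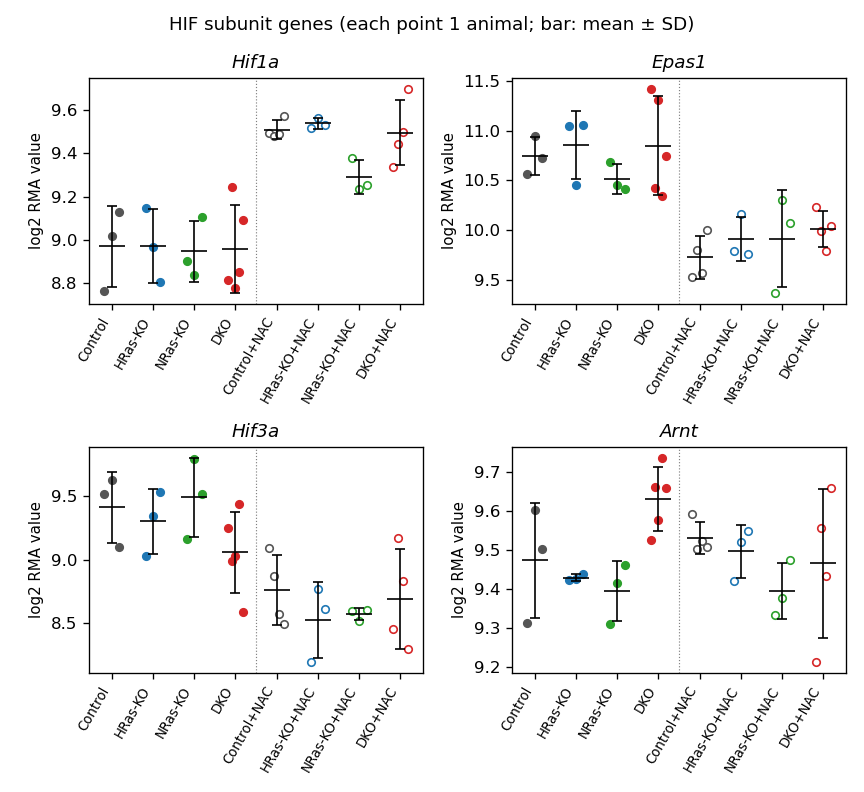
log2 RMA value on each array (y axis) by group (x axis) for the 4 HIF subunit genes; filled points are untreated, open points NAC animals, bars the mean ± SD. All NAC points of Epas1 (9.36 to 10.31) lie below all untreated points (10.34 to 11.42), while those of Hif1a lie at 9.24 to 9.70 against 8.77 to 9.25.

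In HIF turnover, Vhl was higher with NAC in HRas-KO, where it read 6.35, 6.50 and 6.64 untreated and 6.95, 6.83 and 6.90 with NAC (0.39 ± 0.11, limma adjusted p = 0.0211). This call held in 10 of 16 other settings, and was lost with code start as a random block (0.36, adjusted p = 0.0561) and with Xist class as a covariate (0.31, adjusted p = 0.0777), where 2 of 3 HRas-KO and 0 of 3 HRas-KO+NAC arrays were high in Xist. In Control it read 6.70, 6.66, 6.86 and 6.91 with NAC, above all untreated Control arrays, and the difference of 0.30 missed the threshold (adjusted p = 0.0595). In NRas-KO and DKO the differences were -0.03 and -0.13. Egln3 was 1.05 ± 0.36 higher in Control+NAC than in Control, where its 4 arrays (7.84 to 8.67) lay above all 3 Control arrays, with an adjusted p of 0.055. Its other NAC differences were -0.66 in DKO, 0.97 in HRas-KO and -0.18 in NRas-KO, and none passed. Egln1 differed by -0.17 to 0.20 in the 4 genotypes and passed in none.

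In glucose uptake and glycolysis, Slc2a1 fell with NAC in DKO. DKO+NAC read 8.82, 9.43, 9.46 and 9.53, all below the lowest untreated DKO array (9.97), a difference of -0.86 ± 0.15 or 1.81-fold (limma adjusted p = 0.00055). Its level in DKO+NAC was within the range of the other NAC groups (8.73 to 9.66). In Control, HRas-KO and NRas-KO the Slc2a1 difference with NAC was 0.01, 0.21 and -0.24, and none passed. With the mean of both probe sets the DKO difference was -0.37 and still passed (adjusted p = 0.0242).

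Gapdh, the dehydrogenase at the middle of the pathway, read 11.73, 11.78 and 11.53 in Control and 11.30, 11.16, 11.18 and 11.07 in Control+NAC. In DKO it read 11.51, 11.80, 11.10, 12.02 and 12.01, and in DKO+NAC 11.20, 11.14, 11.19 and 11.22. The Control groups did not overlap, while DKO replicate 3 was below all DKO+NAC arrays. It fell by 0.50 in both (limma adjusted p = 0.0248 and 0.0115), and the differences of -0.46 in HRas-KO and -0.50 in NRas-KO missed the threshold (adjusted p = 0.062 and 0.0583). The DKO call was lost with Xist class as a covariate (-0.36, adjusted p = 0.0604), where 2 of 5 DKO and 4 of 4 DKO+NAC arrays were high in Xist, and with only the arrays compared (adjusted p = 0.102). The Control call was lost without Control replicate 1 or 2 or Control+NAC replicate 4. The other 2 Gapdh probe sets fell by 0.47 and 0.53 in Control and by 0.55 and 0.86 in DKO. Gapdh has many near-identical copies in the mouse genome, and 8 further probe sets shared its symbol with another gene, so its value is uncertain.

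Pgam1, phosphoglycerate mutase, read 7.89, 7.95 and 7.91 in Control and 8.60, 8.14, 8.46 and 8.62 in Control+NAC. It read 7.52, 8.18, 7.59, 8.36 and 8.19 in DKO and 8.33, 8.52, 8.77 and 8.31 in DKO+NAC. The Control groups did not overlap, and DKO replicate 4 alone reached the DKO+NAC range. The differences were 0.54 ± 0.17 and 0.51 ± 0.15 (limma adjusted p = 0.0364 and 0.0248). The second Pgam1 probe set (mean level 6.11) gave 0.19 and -0.23, and with the mean of both neither difference passed (0.36 and 0.14). The Control call held in 8 of 17 other settings and the DKO call in 13 of 20.

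Pfkp, the platelet-type phosphofructokinase, read 7.74, 8.12, 7.39, 7.94 and 8.18 in DKO and 7.55, 7.38, 7.42 and 7.65 in DKO+NAC. These ranges overlapped through DKO replicate 3, and the difference was -0.38 ± 0.12 (limma adjusted p = 0.0412). Of the 20 other settings of the fit tried for this result, 9 kept the call.

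Pdk3 was higher with NAC in Control, at 7.64, 7.56, 7.91 and 7.79 against 7.04, 7.40 and 7.35 (0.46 ± 0.11, limma adjusted p = 0.0041), and in HRas-KO, at 7.57, 7.77 and 7.63 against 7.31, 7.22 and 7.43 (0.34 ± 0.11, adjusted p = 0.0499). Neither pair of groups overlapped, but the HRas-KO call held in 4 of 16 other settings and the Control call was lost without Control replicate 1 (adjusted p = 0.0549). In DKO, NAC arrays read 7.49 to 7.79 and untreated arrays 7.58 to 7.66, a difference of 0.04.

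Among the other hypoxia-induced members, Bnip3 was higher with NAC in Control (8.55, 8.31, 8.44 and 8.20, a difference of 0.65 ± 0.19, limma adjusted p = 0.0206) and in HRas-KO (8.38, 8.04 and 8.36, a difference of 0.93 ± 0.20, adjusted p = 0.0029). In both genotypes every NAC array was above every untreated array. DKO+NAC arrays read 8.29, 8.74, 8.39 and 8.06 and were not separated from untreated DKO (difference -0.05). The Control call was lost without Control replicate 1 (0.53, adjusted p = 0.126) or Control+NAC replicate 1.

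Car9, a membrane carbonic anhydrase widely used as a hypoxia marker, was lower with NAC in Control and DKO. Control read 5.86, 5.81 and 5.64 and Control+NAC 5.33, 5.19, 4.85 and 5.17, while DKO read 5.77, 5.86, 5.44, 5.56 and 5.66 and DKO+NAC 5.34, 5.40, 5.23 and 4.98. The groups did not overlap in either genotype, with differences of -0.63 ± 0.12 (limma adjusted p = 0.0012) and -0.42 ± 0.11 (adjusted p = 0.0109). HRas-KO+NAC (5.68, 5.65 and 5.49) and NRas-KO+NAC (5.62, 5.59 and 5.71) were close to their untreated groups (differences of -0.15 and -0.19). The second Car9 probe set, with a mean level of 4.24, gave -0.43 in Control but 0.27 in DKO, and with the mean of both the DKO difference was -0.08 (adjusted p = 0.626). The DKO call was also lost without DKO+NAC replicate 4, the lowest array and the one with high Nras (-0.34, adjusted p = 0.0527), and with only the arrays compared (adjusted p = 0.0525).

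Ddit4 fell with NAC in DKO, to 7.57, 7.93, 8.02 and 7.90, all below the lowest untreated DKO array of 8.39 (-0.67 ± 0.20, limma adjusted p = 0.0297). Ndrg1, a stress-induced gene with differentiation-related roles, fell from 9.20 ± 0.47 (n = 5) to 8.55 ± 0.24 (n = 4) in DKO, with overlapping arrays (-0.64 ± 0.20, adjusted p = 0.0369). P4ha2, a collagen prolyl hydroxylase subunit, read 6.57, 6.64, 6.45, 6.68 and 6.50 in DKO and 6.54, 6.07, 6.09 and 6.18 in DKO+NAC, where replicate 1 overlapped (-0.35 ± 0.10, adjusted p = 0.02). The Ddit4 call held in 13 of 20 other settings. It was lost without the arrays high in muscle markers (-0.62, adjusted p = 0.208) and with Xist class as a covariate (-0.51, adjusted p = 0.122). It was also lost with the replicate block and without DKO replicate 1 or 5 or DKO+NAC replicate 1. The P4ha2 call held in 16 of 20, and was lost without the arrays high in muscle markers, among others. The Ndrg1 call held in 9 of 20 other settings, and its second probe set gave 0.37.

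**Figure D3:**
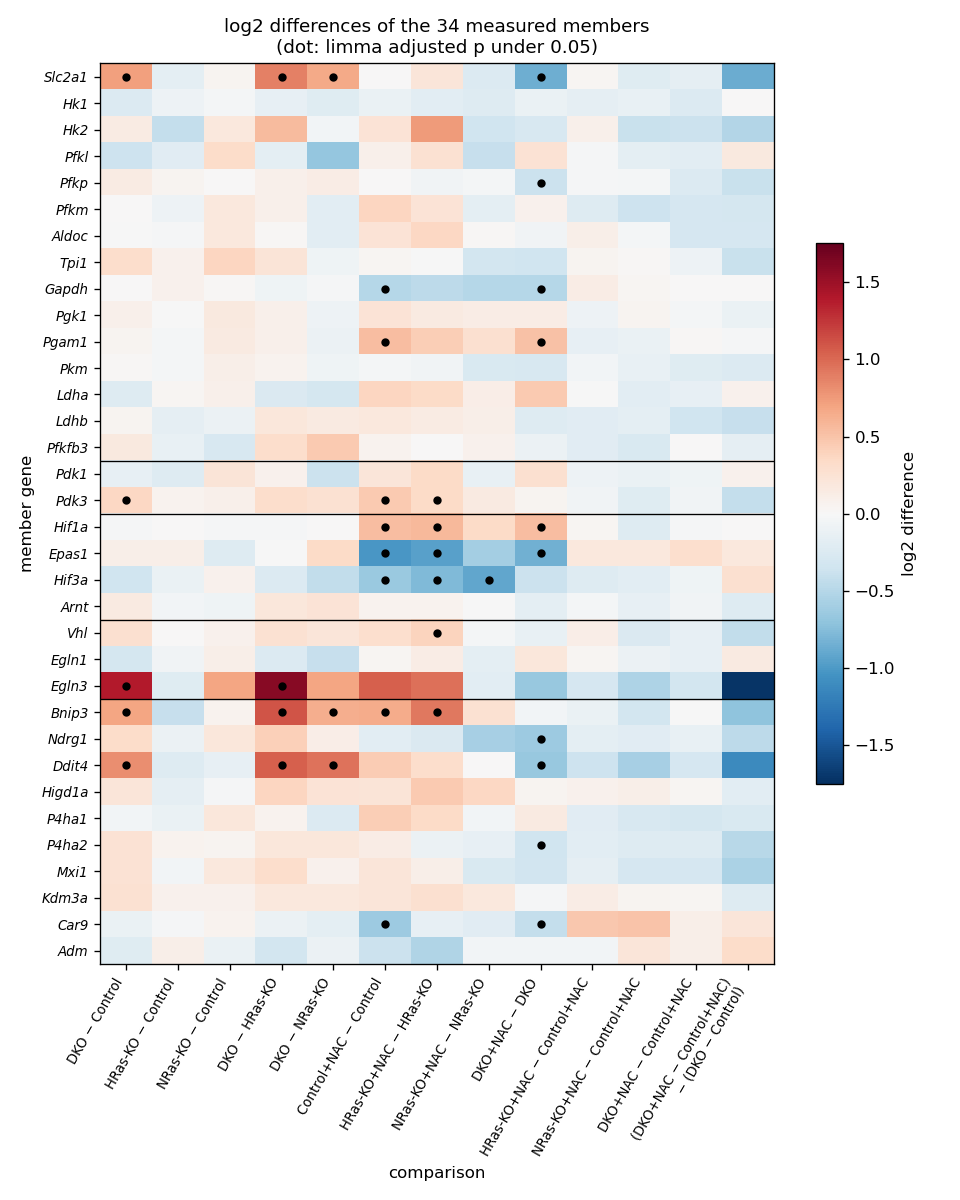
log2 difference (colour) of each of the 34 measured members (rows, ordered by role) in each of the 13 comparisons (columns); a dot marks a limma adjusted p under 0.05. The dots of untreated DKO comparisons fall on Slc2a1, Egln3, Bnip3, Ddit4 and Pdk3, and those of the NAC comparisons include Hif1a, Epas1 and Hif3a in 3 genotypes each.

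Within the NAC arm no member was called between any knockout and Control+NAC, and 0 percent of all genes were called in each of these 3 comparisons. At an unadjusted limma p under 0.05 there were 1 member in HRas-KO+NAC (6.35% of all genes), 4 in NRas-KO+NAC (10.5%) and 5 in DKO+NAC (9.54%). The DKO+NAC minus Control+NAC difference was -0.16 for Slc2a1, -0.32 for Egln3, 0.00 for Bnip3, -0.30 for Ddit4 and -0.06 for Pdk3. Its 95% intervals were -0.49 to 0.18 for Slc2a1, -1.02 to 0.37 for Egln3, -0.36 to 0.35 for Bnip3, -0.74 to 0.14 for Ddit4 and -0.26 to 0.14 for Pdk3. Car9 was higher than Control+NAC in HRas-KO+NAC (0.47) and NRas-KO+NAC (0.51) without overlap, with limma adjusted p-values of 0.475 and 0.161. Within code start T453 the Car9 differences were 0.44 and 0.54.

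Whether the DKO difference itself changed with NAC was tested as (DKO+NAC minus Control+NAC) minus (DKO minus Control). No member passed, against 0.388% of all genes in either direction, and 9 members had an unadjusted limma p under 0.05 (13% of all genes). The estimate was -0.87 ± 0.23 for Slc2a1 (adjusted p = 0.0866), -1.11 ± 0.31 for Ddit4 (adjusted p = 0.0992), -1.71 ± 0.48 for Egln3 (adjusted p = 0.106), -0.70 ± 0.25 for Bnip3 (adjusted p = 0.197) and -0.42 ± 0.14 for Pdk3 (adjusted p = 0.171). A smaller difference with NAC was therefore not shown for any member at this threshold. For Bnip3, Egln3, Pdk3 and Ddit4 the Control+NAC means (8.38, 8.14, 7.73 and 8.15) lay above Control (7.73, 7.09, 7.26 and 7.71), of which the Egln3 and Ddit4 differences did not pass, whereas for Slc2a1 they were 9.47 and 9.45.

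Many, though not all, of the glycolytic members varied together between the animals of the DKO group. The mean deviation of the 15 glucose uptake and glycolysis members was -0.20, 0.23, -0.32, 0.38 and 0.07 on DKO replicates 1 to 5, an SD of 0.29 against 0.05 to 0.11 in the other untreated groups. In the NAC groups this SD ran from 0.077 (Control+NAC) to 0.245 (NRas-KO+NAC). DKO replicates 1 and 3 were the lowest pair of the 5 DKO arrays in 17 of the 34 members (50%), against 15.4% of all genes. Both were also lowest in the glycolysis means, which come from the same values. The comparison with all genes is therefore no test of the pair. Those replicates also had high Xist, unlike the other 3 DKO arrays, and the highest Epas1 values. Their skeletal muscle marker means were 1.37 and 0.38, and those of DKO replicates 2, 4 and 5 were -0.135, -0.163 and 0.829. Ldha shows the low pair plainly, at 5.57 and 5.75 on replicates 1 and 3 and 6.54, 6.28 and 6.29 on the others. Ldha makes lactate from pyruvate, and Pgk1, phosphoglycerate kinase, read 8.70 and 8.51 there, below the other 3, which reached 9.49. For Hk2, Pfkm, Tpi1, Ldhb and Pfkfb3, replicates 1 and 3 were not the lowest pair. The part of sex, muscle or code start in this pattern was not tested.

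In the NAC arm, NRas-KO+NAC replicate 2 and DKO+NAC replicate 1, the arrays with code start T195, were the lowest pair of the 14 NAC arrays in 12 of 34 members (35.3%), against 6.89% of all genes. Their glycolysis means were -0.32 and -0.34, with the other NAC arrays at -0.09 to 0.20. Those means come from the same values, so the comparison with all genes is no test of the pair. Cell cycle markers were also lowest there, at -0.60 and -0.80 against -0.23 or more. Their part was not tested. Without both arrays the NAC difference in DKO was -0.70 for Slc2a1 (limma adjusted p = 0.00064), and Ddit4 (-0.57), Ndrg1 (-0.59) and Pfkp (-0.39) no longer passed.

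**Figure D4:**
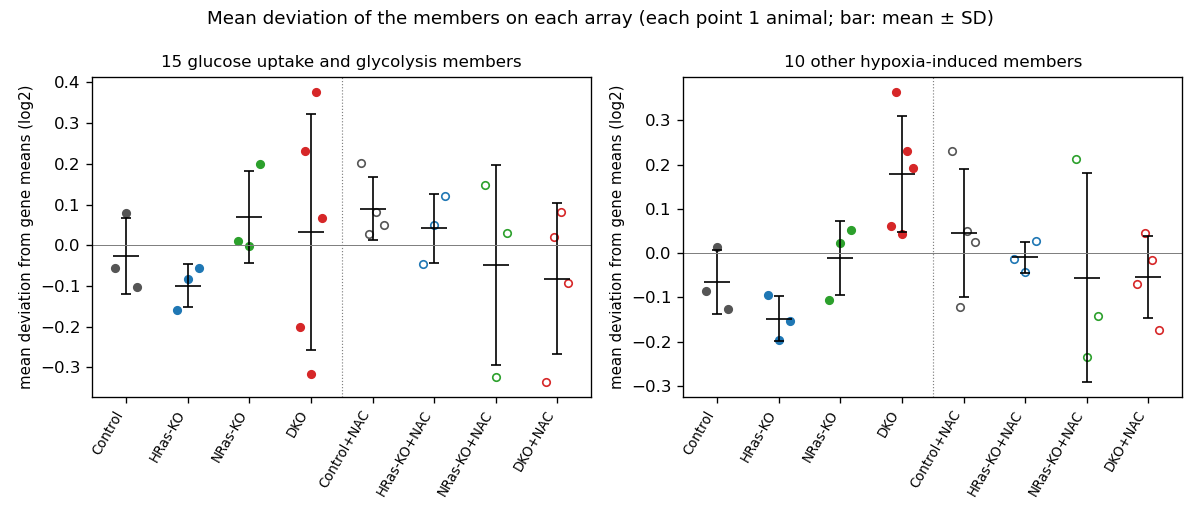
Mean deviation of the members from their gene means on each array (y axis, log2) by group (x axis), for the 15 glucose uptake and glycolysis members (left) and the 10 other hypoxia-induced members (right); bars are the mean ± SD. DKO glycolysis means run from -0.32 to 0.38, the widest of the untreated groups, and both T195 arrays lie at -0.32 and -0.34.

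Of the 34 measured members, 19 were called in none of the 13 comparisons. They included 11 glycolysis members (Hk1, Hk2, Pfkl, Pfkm, Aldoc, Tpi1, Pgk1, Pkm, Ldha, Ldhb and Pfkfb3), Pdk1, Arnt and Egln1, and 5 hypoxia-induced genes (Higd1a, P4ha1, Mxi1, Kdm3a and Adm). Pgk1 was at 8.87 ± 0.06 (n = 3) in Control, 8.95 ± 0.37 (n = 5) in DKO, 9.11 ± 0.09 (n = 4) in Control+NAC and 9.08 ± 0.14 (n = 4) in DKO+NAC. Ldha was at 6.31 ± 0.19, 6.09 ± 0.41, 6.69 ± 0.14 and 6.54 ± 0.26 in the same groups, and its NAC difference of 0.46 in DKO came near the threshold (limma adjusted p = 0.0569). Hk2, the inducible hexokinase, gave the largest uncalled NAC difference of the glycolysis members, 0.74 in HRas-KO (adjusted p = 0.0887). Adm, the vasodilator adrenomedullin, was at 7.34 ± 0.50 in Control and 7.13 ± 0.39 in DKO.

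Other genes of these pathways outside the list of members were seldom called in untreated DKO, at a rate close to that of all genes (2.48% higher and 1.35% lower). Of 25 measured further genes of glycolysis and pyruvate use, 0 were higher and 1 lower in untreated DKO than Control (Pgam2, the muscle phosphoglycerate mutase, by -0.51, limma adjusted p = 0.0352), and their median difference was 0.07. Of 36 measured further hypoxia genes, with a median of 0.07, 0 were higher and 1 lower: Cited2, a HIF-induced protein that competes with HIF for its coactivator, which differed by -0.77 from Control (adjusted p = 0.0041), -0.77 from HRas-KO and -0.72 from NRas-KO. Its interaction estimate of 0.91 also passed (adjusted p = 0.0499).

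With NAC, the shares of all genes called higher and lower were 5.74% and 6.46% in DKO, 7.86% and 5.68% in Control, 6.73% and 5.1% in HRas-KO, and 2.86% and 3.56% in NRas-KO. Of the 25 further glycolysis genes, 2 were higher and 2 lower in DKO, 4 and 3 in Control, 5 and 1 in HRas-KO, and 2 and 1 in NRas-KO. The pyruvate dehydrogenase subunits Pdha1 and Pdhb were higher in all 4 genotypes. Pdha1 differed by 0.88 in Control, 0.78 in HRas-KO, 0.63 in NRas-KO and, among DKO arrays, 0.48. Pdhb differed by 0.80, 0.66, 0.49 and 0.37 in that order. Of the 36 further hypoxia genes, 5 were higher and 3 lower in DKO, 7 and 3 in Control, 5 and 1 in HRas-KO, and 2 and 1 in NRas-KO. Several of these counts, the lower ones in NRas-KO among them, are near the shares of all genes. The higher counts in NRas-KO were above that share, but were of 2 genes in each list. Vegfa, the endothelial growth factor and a standard HIF target, was lower in Control (-0.44), HRas-KO (-0.53) and NRas-KO (-0.47). Ero1a, of the same hypoxia list, was higher in Control (0.73), HRas-KO (0.56) and NRas-KO (0.47). Ccng2, a growth-inhibiting cyclin, was higher in all 4 (0.51 to 0.81). In DKO the muscle enolase Eno3 fell by 0.94 and the muscle glucose transporter Slc2a4 by 0.49, beside skeletal muscle marker means of -0.16 to 1.37 in DKO and -0.38 to -0.21 in DKO+NAC. The part of muscle RNA in these differences was not tested.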

How the data were processed

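The authors deposited 1 table of log2 values for 41345 probe sets on 28 arrays, made with RMA and affy per the submitters' processing notes (the sources used here give no versions). Values ran from 2.28 to 13.55 and array medians from 5.25 to 5.41. The platform annotation gave 23521 probe sets 1 symbol, 1814 several and 16010 were unlisted. The brightest probe set stood for each of 22180 genes. The number of arrays limits the precision.

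Means of the 8 groups were estimated in 1 model over all arrays with limma 3.58.1 in R 4.3.3 (eBayes moderation, residual df 20, prior df 5.95), with 13 comparisons and Benjamini-Hochberg adjustment over all genes. Tested on simulated data for DKO minus Control, with 22180 genes, it recovered 48% of changes of 0.5 and 95% of changes of 1 (log2). Members and lists were chosen with earlier results of these data known. Members called in any comparison, the HIF regulators, Pgk1 and Ldha were named with values, and of other pathway genes the 4 smallest p-values of each list and comparison at most. Alternatives covered the probe set rule, a filter on the dimmest 40% of genes (0 members), normalization again, centring, moderation, arrays in the fit, blocks by replicate number or code start, and each array left out. 3 were added after seeing the data: without the 5 arrays highest in muscle markers, Xist class as a covariate, and without both T195 arrays. Cardiac muscle, neutrophil and keratinised epithelium marker means were also computed: cardiac means were -0.33 to 0.10 in DKO and 0.07 to 0.28 in Control, neutrophil means -0.40 to -0.05 and -0.22 to 0.44, and keratinised means -0.09 to 0.10 and -0.21 to -0.04 (1.80 on NRas-KO replicate 2).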

Additional observations from a re-analysis of the deposited data

Results flagged for a closer look

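In 102 groups of 4 or 5 values, 7 held a single array far from the rest of its group by Dixon's test, where chance gives about 1 in 20. DKO+NAC replicate 1 stood low in 4 of them: Slc2a1 (8.825, others 9.432 to 9.529), Hk2 (6.700, others 7.318 to 7.433), Aldoc (5.902, others 6.384 to 6.456) and Mxi1 (7.422, others 7.693 to 7.742). In Control+NAC, Egln1 was low on replicate 3 (7.947, others 8.122 to 8.155), Adm was low on replicate 2 (6.584, others 7.058 to 7.137) and Hif1a was high on replicate 4 (9.572, others 9.480 to 9.492).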

How the results depend on the processing

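Counts of members called kept within 1.5 times their main value, or at 0, except as follows. The call counts of the fit on all arrays were 5 for DKO against Control, 3 for DKO against NRas-KO, and, for NAC, 10 in DKO, 8 in Control, 6 in HRas-KO and 1 in NRas-KO. With only the arrays compared they were 1 (DKO against Control), 10 (NAC in HRas-KO) and 4 (NAC in DKO). The code start as a random block left 3 for NAC in HRas-KO. For NAC in NRas-KO the count was 2 with the mean of a gene's probe sets, without dim genes, with trended and robust moderation and with Xist as a covariate. Without the arrays high in muscle markers it was 0 for DKO against Control and against NRas-KO. Leaving out 1 array at a time gave 0 to 4 for DKO against Control, 0 to 3 against NRas-KO, 3 to 4 against HRas-KO, and for NAC 6 to 10 in DKO, 3 to 9 in Control, 0 to 2 in NRas-KO and 2 to 5 in HRas-KO. Arrays behind these changes were Control replicates 1, 2 and 3, DKO 1, 3 and 5, NRas-KO 1 and 2, HRas-KO 2, Control+NAC 4, HRas-KO+NAC 1 and 3, NRas-KO+NAC 1 and DKO+NAC 3. The cause was not tested.

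Replicate numbers did not pair the arrays (same-numbered arrays of different groups correlated at 0.021 on average over 37 pairs, with 13 over 0.1). Arrays of different groups with the same code start correlated at 0.146 over 28 pairs, with 15 over 0.1. With the replicate number as a block, 2 members passed for DKO against Control. Over named genes, 518 values in other settings kept their call, 147 lost it and 0 turned their direction. Over all genes, normalizing by quantiles again gave 841 calls for DKO against Control, 458 of them higher, where the main fit gave 850 and 550, and 1029 and 555 against NRas-KO (main 1098 and 710). Centring gave 2565 and 909 for NAC in DKO (main 2706 and 1273), and 169 and 23 for the interaction (main 86 and 26). With only the arrays compared the counts were 122 for DKO against Control, 459 against HRas-KO (main 1248), 312 against NRas-KO, 486 for NAC in NRas-KO (main 1425), 1476 for NAC in DKO and 0 for the interaction, which the random block gave 50. The largest shift of the median of all genes under another scaling was 0.062.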
